A study of Mus musculus with 5 samples.

Results

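This is a description of 37 genes in blood stem and progenitor cells of Gabbr1 null and wild-type (WT) mice. They encode nucleolar proteins and rRNA processing factors, and their transcriptional regulator Myc is counted among the 37. The genes were chosen by name from a list of known factors, with earlier results of these data known. All 37 were found among the 39056 genes of the count table. The cells were the Lin−Sca-1+Kit+ (LSK) fraction of bone marrow, which holds blood stem cells and multipotent progenitors, sorted at postnatal day 15 with about 12000 cells per library. 3 libraries came from Gabbr1 null mutant mice and 2 from WT mice, all on the C57BL/6 background. Gabbr1 codes for a GABA-B receptor subunit, and the design asks how its loss alters gene expression in these cells. The sources used here give neither the deleted part of the gene nor whether each library is its own animal. The labels' extraction protocol counts 4 per genotype, while the design text counts 3 null and 2 WT, as do the libraries. The p-values therefore measure library-to-library spread, which may be technical.

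Ribosomes are built in the nucleolus. RNA polymerase I transcribes a long precursor of rRNA, small nucleolar ribonucleoproteins (snoRNPs) guide its methylation and pseudouridylation, and large sets of assembly factors cut and fold it into the small and the large subunit. Myc activates many of these genes, and blood stem cells are known to keep a low rate of protein synthesis compared with the progenitors they give rise to.

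Total counts were between 6972753 and 8150774 per library, so that the members were read deeply: apart from Wdr74, the lowest count of any member in a library was 126, and the highest was 6224, for Ncl. Gabbr1 itself had 38.5, 34.8 and 33 CPM (counts scaled to library size with TMM factors) in null libraries 1 to 3, against 49.5 and 57.4 CPM in the WT libraries (edgeR adjusted p = 0.0361). This call was lost without null library 2, null library 3, WT library 1 or WT library 2 (adjusted p = 0.0802, 0.137, 0.0722 and 0.38), and reads outside the deleted part cannot check the labels. Of the genes that define the gate, Kit was 864, 987 and 883 CPM in null, against 995 and 1050 CPM in WT, and Ly6a, which codes for Sca-1, was 29.8, 12.9 and 24 CPM in null, against 26.8 and 30.3 CPM in WT. The libraries differed in markers of other cells. Summed over 11 B lineage markers, none of them at 0 in any library, the level was 636 to 1130 CPM in null, against 82.3 to 196 CPM in WT. Summed over 8 stroma and cartilage markers it was 62.8 to 263 CPM in null, against 3.32 and 7.83 CPM in WT, where Col2a1 and Acan were at 0. Null library 1 also had 2210 CPM summed over 9 mature neutrophil markers, against 106 to 588 CPM in the other 4 libraries. Apart from these markers, Xist, a gene of the X chromosome, was abundant in null library 1 only (22532 counts, at most 21 elsewhere). The member Dkc1 lies on the X chromosome too. 10 immediate early genes summed to 460 to 712 CPM in null, against 1120 and 2000 CPM in WT libraries 1 and 2. The part of these differences in the values below was not tested, and in bulk samples fewer cells of a type and less RNA per cell cannot be told apart.

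No member passed the test between genotypes. Of 37 members tested, 0 were higher and 0 lower in null at an adjusted p under 0.05 in edgeR's quasi-likelihood test, where 2.48% of the 13467 genes tested passed in either direction, 2.15% higher and 0.334% lower. DESeq2 and limma-voom also called 0 and 0, where they passed 2.87% and 1.88% of all genes. With an unadjusted p under 0.05 in edgeR, 6 members were lower and 0 higher (2 and 0 in DESeq2, 5 and 0 in limma-voom), where edgeR placed 4.84% of all genes lower and 7.99% higher. The differences were small: the log2 fold change of null over WT ran between -0.74 (Wdr74) and 0.10 (Npm1), and its median was -0.11, with -0.00 over all genes tested. 29 of 37 log2 fold changes were negative (78.4%), as were 50.8% over all genes; RLE and upper quartile scaling gave 30 and 31.

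The data bound the size of any difference for most members. The 95% interval of the fold change lay within 1.5-fold in either direction for 32 of 37 members (86.5%). It did so for 54.9% of all genes tested, and for 63.6% of the 11439 tested genes within the members' range of mean CPM. Wdr74 alone sets the low end of that range, at 2.39 CPM in null and 3.99 CPM in WT. The next lowest member, Rrp9, had 19.8 CPM in null and 25.8 CPM in WT. The shares are therefore not matched for level. The exceptions were Fbl, Rrp9, Wdr74, Ppan and Nle1, whose intervals reached beyond it on the lower side. A p above the threshold does not show equal levels, and these intervals cover the spread between 3 and 2 libraries only.

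**Figure D1:**
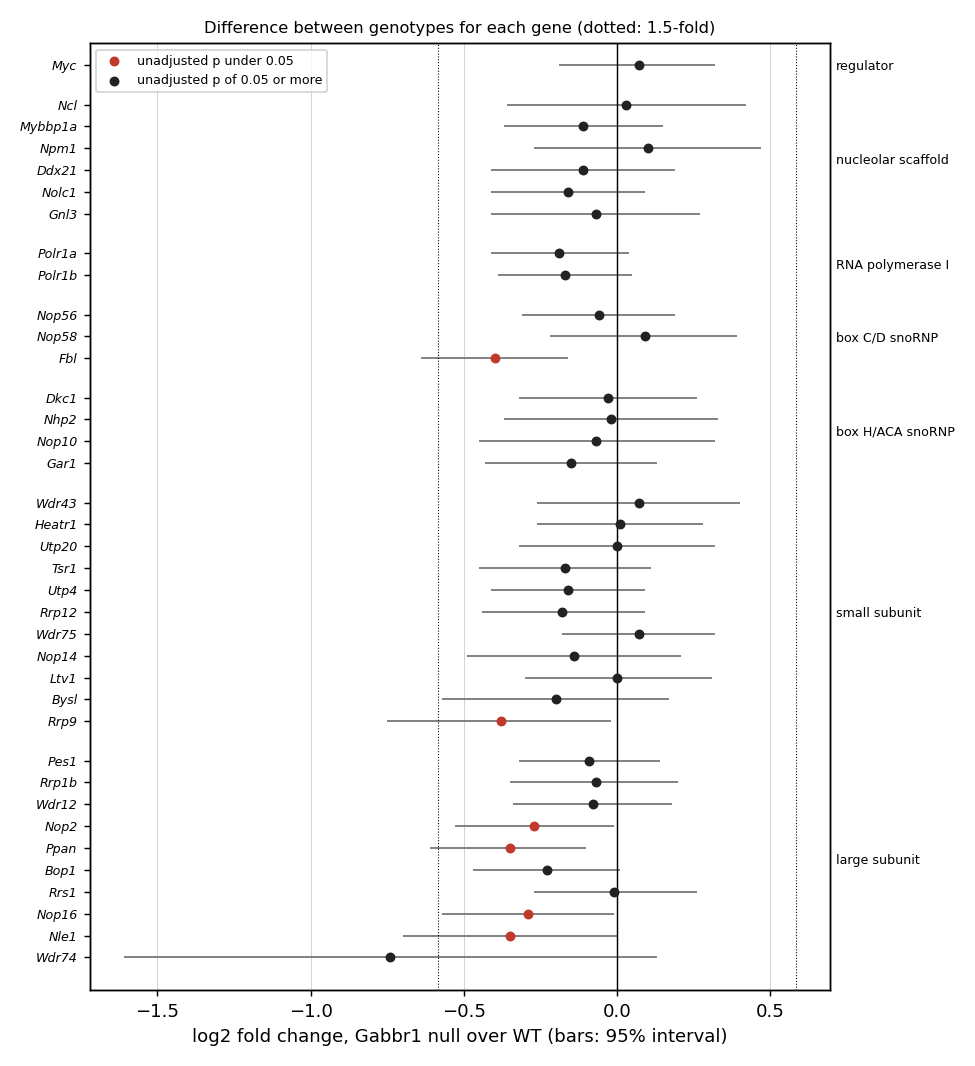
Log2 fold change of Gabbr1 null over WT for the 37 genes (x axis), ordered by role, with the 95% interval as a bar and 1.5-fold as dotted lines. The 6 genes with an unadjusted p under 0.05 (red) lie left of zero between -0.40 and -0.27, and no gene passed after adjustment.

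Promoter sequences of 31 members were found in RefSeq's table (GRCm38.p6, the mm10 build); Myc, Npm1, Fbl, Rrs1, Rrp12 and Bop1 were not matched. The motif CACGTG is the canonical E-box to which Myc binds together with Max. It was searched in the 300 bases from 250 before to 50 after each RefSeq start. It reads the same on both strands, and no other motif was searched. It was present in 9 of 34 promoters of members (26.5%), against 2349 of all 32851 promoters (7.15%), those of genes not tested here included. Counted by gene, at least 1 promoter held it in 9 of 31 members (29%), against 11.8% of the 9780 tested genes with an entry. The 9 genes were Nop2, Utp4, Ltv1, Utp20, Pes1, Mybbp1a, Tsr1, Nle1 and Wdr43, and in all of these but Nop2 the motif lay after the start. Their median log2 fold change of null over WT was -0.11, and that of the 22 members without a match was -0.10. A match is a description of these letters and not a measured binding site.

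5 promoters are shown because their genes carry the patterns described below: Nop2, Nle1 and Ppan were among the members with the lowest p, and Ncl and Wdr43 were among those that differed most between the WT libraries. Each runs 5′ to 3′ on the gene's strand over 280 bases, and capitals mark CACGTG. The last 30 bases follow the RefSeq start, which can differ from the gene positions used elsewhere here. By those positions the Ncl stretch lies wholly before the gene (minus strand, 86344719 to 86359400). The Wdr43 stretch lies wholly inside its gene (plus strand, 71615895 to 71659031).
Nop2, chr6:125131633-125131912, plus strand: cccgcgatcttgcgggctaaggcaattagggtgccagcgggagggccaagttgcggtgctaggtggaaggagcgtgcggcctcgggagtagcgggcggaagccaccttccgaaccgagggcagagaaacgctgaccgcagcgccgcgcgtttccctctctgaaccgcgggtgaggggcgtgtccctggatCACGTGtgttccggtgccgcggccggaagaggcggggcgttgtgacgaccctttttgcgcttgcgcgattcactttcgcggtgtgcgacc
Nle1, chr11:82908366-82908645, minus strand: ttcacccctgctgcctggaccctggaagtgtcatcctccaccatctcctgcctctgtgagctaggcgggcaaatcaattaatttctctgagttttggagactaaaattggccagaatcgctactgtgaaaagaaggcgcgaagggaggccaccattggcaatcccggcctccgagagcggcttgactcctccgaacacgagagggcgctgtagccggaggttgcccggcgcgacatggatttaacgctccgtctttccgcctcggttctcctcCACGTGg
Ppan, chr9:20887925-20888204, plus strand: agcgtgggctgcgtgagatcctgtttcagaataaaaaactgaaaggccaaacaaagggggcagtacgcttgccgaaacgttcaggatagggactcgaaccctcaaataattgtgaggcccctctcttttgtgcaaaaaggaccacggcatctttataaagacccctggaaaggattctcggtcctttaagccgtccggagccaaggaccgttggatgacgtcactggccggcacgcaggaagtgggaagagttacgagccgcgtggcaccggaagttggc
Ncl, chr1:86359426-86359705, minus strand: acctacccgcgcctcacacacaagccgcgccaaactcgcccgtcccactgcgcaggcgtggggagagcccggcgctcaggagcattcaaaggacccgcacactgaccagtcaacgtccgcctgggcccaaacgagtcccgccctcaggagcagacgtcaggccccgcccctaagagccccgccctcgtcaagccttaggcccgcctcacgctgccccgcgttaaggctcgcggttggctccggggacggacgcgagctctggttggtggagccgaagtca
Wdr43, chr17:71615965-71616244, plus strand: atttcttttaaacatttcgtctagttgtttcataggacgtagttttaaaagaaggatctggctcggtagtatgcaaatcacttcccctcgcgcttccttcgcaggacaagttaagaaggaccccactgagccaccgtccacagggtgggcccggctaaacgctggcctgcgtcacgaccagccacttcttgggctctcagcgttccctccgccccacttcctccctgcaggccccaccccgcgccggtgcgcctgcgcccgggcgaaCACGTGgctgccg
Nop2 held the motif 60 bases before the start, Nle1 at base 24 and Wdr43 at base 18 after it. Ppan and Ncl did not hold it in this window. The 5 genes were not taken by rank. Rrp9 and Nop16 had a lower edgeR p than Nle1, and the WT libraries differed more in Gnl3 than in Wdr43. The promoters of Rrp9, Nop16 and Gnl3 are not shown and held no match. How often the motif goes with either pattern cannot be read from the promoters shown.

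Myc (chromosome 15, 61985391 to 61990374, mm10), the regulator of the pathway, did not differ between genotypes beyond the spread. It was 343, 302 and 299 CPM in the null libraries, against 310 and 291 CPM in the WT libraries. The groups overlapped, with null library 1 highest. The fold change was 1.05 with a 95% interval of 0.88 to 1.25 (edgeR adjusted p = 0.889), so that a difference of 1.5-fold lies outside the interval in either direction. Per kilobase of merged exons, Myc had the next highest level after Npm1 among the 37 members, at 116 CPM per kb in null and 111 CPM per kb in WT.

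Its network was described from 12 tested genes, of which 0 passed in edgeR, and their log2 fold changes had a median of 0.04. Mycn, a paralog of Myc expressed in blood stem cells, was 96.1, 125 and 100 CPM in null, against 135 and 160 CPM in WT, and the groups did not overlap. Its log2 fold change of -0.46 ± 0.13 (SE) did not pass (edgeR adjusted p = 0.121), though it did with no filter on low counts and without null library 2 (adjusted p = 0.00704 and 0.038). Mycl, the third paralog, had 53, 25 and 23 counts in null, against 11 and 6 counts in WT (edgeR adjusted p = 0.0979, log2 fold change 1.96 ± 0.54 SE). It passed with no filter and in a robust fit (adjusted p = 0.00235 and 0.0467). Max, the partner of all 3, had 110, 96.2 and 122 CPM in null and 112 and 110 CPM in WT.

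**Figure D2:**
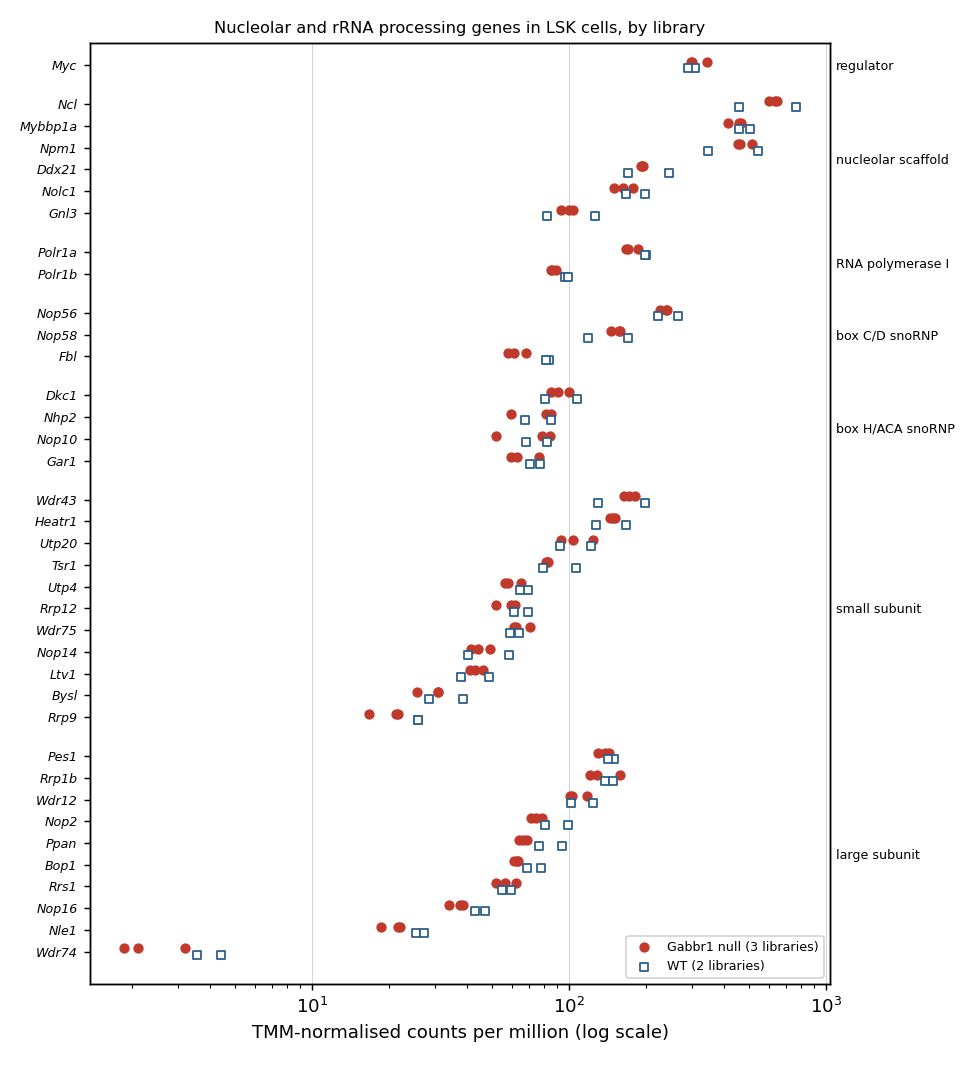
Level of each of the 37 genes in each library (x axis, TMM-normalised CPM on a log scale), by role; filled circles are the 3 Gabbr1 null libraries and open squares the 2 WT libraries. The null libraries of Fbl, Ppan, Nop16, Nle1 and Polr1a lie left of both WT libraries, and the WT libraries of Ncl, Npm1, Gnl3 and Wdr43 lie on either side of all null libraries.

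None of the 6 nucleolar scaffold genes had groups apart, and in 4 of them every null library lay between the WT libraries. Ncl encodes nucleolin, an abundant nucleolar RNA-binding protein. It was 601, 634 and 643 CPM in the null libraries, against 766 and 459 CPM in WT libraries 1 and 2. All null values lay between the WT values, and the fold change was 1.02 (95% interval 0.78 to 1.34). Npm1, the gene of the histone chaperone nucleophosmin, was 456, 463 and 515 CPM in null, against 546 and 347 CPM in WT, the same arrangement. Npm1 has processed pseudogene copies in the mouse genome, and the sources used here do not say how reads shared with them were counted.

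Ddx21, an RNA helicase of rRNA transcription and processing, was 193, 191 and 194 CPM in null, against 244 and 170 CPM in WT. Gnl3, which encodes the GTP-binding protein nucleostemin, was 100, 104 and 93.1 CPM in null, against 126 and 81.7 CPM in WT. These genes too had every null library between the WT libraries. Nolc1, a chaperone of snoRNPs, had the largest difference of the scaffold group by genotype, with 177, 150 and 162 CPM in null and 197 and 167 CPM in WT (log2 fold change -0.16 ± 0.12 SE, edgeR adjusted p = 0.632). Mybbp1a, a nucleolar co-repressor, averaged 447 ± 26.2 CPM in null and 481 ± 34.5 CPM in WT (SD, n = 3 and 2).

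Both RNA polymerase I genes were lower in every null library than in either WT library, by a small amount that did not pass. Polr1a, the largest catalytic subunit, was 169, 185 and 167 CPM in null, against 199 and 197 CPM in WT (log2 fold change -0.19 ± 0.10 SE, edgeR adjusted p = 0.496). Polr1b, its partner in the catalytic core, was 85.3, 89.1 and 85.9 CPM in null, against 96 and 99.1 CPM in WT (log2 fold change -0.17 ± 0.10 SE, edgeR adjusted p = 0.542). Of 15 tested genes of the polymerase and its factors, 0 passed in edgeR, and the median log2 fold change was -0.12. Among them was Znrd1, a small subunit of the polymerase whose gene lies on chromosome 17 (36954356 to 36958559), as does Gabbr1 (37045966 to 37075067), with 28.6, 23.6 and 31.7 CPM in null and 25.5 and 27.8 CPM in WT. Ubtf, the factor that organises active rDNA, had a log2 fold change of -0.12 ± 0.11 (SE).

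Of the box C/D snoRNP genes, Fbl had the lowest p of all 37 members. Fbl (chromosome 7, 28169710 to 28179269, mm10) encodes fibrillarin, the enzyme that methylates ribose in rRNA at sites chosen by guide RNAs. It was 61.2, 58.1 and 68.1 CPM in the null libraries, against 83.6 and 81 CPM in the WT libraries. Every null library lay below both WT libraries. The fold change was 0.76 with a 95% interval of 0.64 to 0.90 (log2 -0.40 ± 0.11 SE), which did not pass after adjustment over all genes (edgeR adjusted p = 0.103). Over the 12 alternative fits its log2 fold change stayed between -0.46 and -0.34, with adjusted p between 0.0536 and 0.363.

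The other core proteins of the same particle had smaller differences. Nop56 was 241, 239 and 225 CPM in null, against 266 and 222 CPM in WT. Nop58 was 158, 156 and 146 CPM in null, against 170 and 119 CPM in WT. Both had all null values inside the WT range, and their log2 fold changes were -0.06 ± 0.12 and 0.09 ± 0.14 (SE). Snu13, the remaining core protein and not among the 37, was 72.5, 58.7 and 75.8 CPM in null, against 73.7 and 80.7 CPM in WT, with overlap between the groups (edgeR adjusted p = 0.675, log2 fold change -0.16 ± 0.13 SE). Whether Fbl differs from them in response was not tested.

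The 4 box H/ACA snoRNP genes, whose particle converts uridine to pseudouridine, had log2 fold changes between -0.15 and -0.02. Dkc1, the pseudouridine synthase, was 90.3, 85 and 100 CPM in null and 107 and 80.7 CPM in WT. Gar1 had the largest difference of the group, with 62.6, 59.4 and 76.7 CPM in null and 70.6 and 76.8 CPM in WT (edgeR adjusted p = 0.699). Nop10 and Nhp2, the smallest proteins of the particle, were lowest in null library 2, at 52.1 and 59.2 CPM, while null libraries 1 and 3 had 78.6 and 84 CPM of Nop10 and 81.4 and 85.2 CPM of Nhp2. The WT libraries had 82 and 67.9 CPM of Nop10 and 85.4 and 67.1 CPM of Nhp2. In the list of 16 tested snoRNP and assembly genes, 0 passed in edgeR. After Fbl, its lowest p belonged to Pih1d1, an assembly cofactor, at 55.7, 47 and 50.1 CPM in null and 59.2 and 66.8 CPM in WT (edgeR adjusted p = 0.305).

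Of the 11 small subunit genes, Rrp9 was the member with an unadjusted p under 0.05. It encodes a protein of the snoRNP that directs the first cuts of the rRNA precursor. Rrp9 was 21.5, 16.6 and 21.2 CPM in null, against 25.8 and 25.8 CPM in WT, and the groups did not overlap (log2 fold change -0.38 ± 0.17 SE, edgeR adjusted p = 0.36). It shares exonic bases with Parp3 on the opposite strand. Bysl, a factor of late small subunit maturation, was 31, 25.6 and 30.9 CPM in null, against 28.6 and 38.7 CPM in WT, with overlap between the groups and with exonic bases shared with Ccnd3 on the opposite strand (edgeR adjusted p = 0.698, log2 fold change -0.20 ± 0.17 SE).

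The other small subunit genes had log2 fold changes between -0.18 (Rrp12) and 0.07 (Wdr43 and Wdr75). Wdr43, a component of the small subunit processome, was 171, 181 and 164 CPM in null, against 197 and 130 CPM in WT. Heatr1, which also acts in rDNA transcription, was 151, 148 and 144 CPM in null, against 166 and 127 CPM in WT. Nop14, Tsr1 and Ltv1, which act in processome assembly and in late maturation, likewise had every null value inside the WT range. Utp4, Utp20 and Rrp12 averaged 59.7 ± 4.58, 107 ± 15.5 and 57.6 ± 5.00 CPM in null, against 66.9 ± 3.11, 107 ± 20.6 and 65.2 ± 6.06 CPM in WT (SD, n = 3 and 2). In the wider list of 57 tested small subunit genes, 0 passed in edgeR and the median log2 fold change was -0.07. Its lowest p after Rrp9 belonged to the rRNA acetyltransferase gene Nat10 (edgeR adjusted p = 0.423, log2 fold change -0.21 ± 0.10 SE).

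All 10 large subunit members had negative log2 fold changes, with a median of -0.25, and no test set them against the other roles. In 6 of 10 every null library lay below both WT libraries, as in 4 of the other 27 members, both RNA polymerase I genes among them. The wider lists without the members did not have this order: every null library lay below both WT libraries in 10 of 51 large subunit genes (19.6%, median log2 fold change -0.05) and in 12 of 46 small subunit genes (26.1%, median -0.07). Among all genes tested 13.7% were placed this way, and 15.5% had every null library above both WT libraries, which was the case for no member. 4 of the 10 were lower at an unadjusted p under 0.05 in edgeR, where 4.84% of all genes were. In the wider large subunit list without the members 4 of 51 were.

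Ppan, a factor of large subunit rRNA maturation (chromosome 9, 20888175 to 20892178), was 66.4, 64.1 and 68.4 CPM in null, against 76.1 and 93.7 CPM in WT. Its fold change was 0.78 (95% interval 0.65 to 0.93) and did not pass (edgeR adjusted p = 0.192). Nop2, the methyltransferase of a cytosine in large subunit rRNA, was 74.5, 78.5 and 70.9 CPM in null, against 80.5 and 99.4 CPM in WT (log2 fold change -0.27 ± 0.12 SE, edgeR adjusted p = 0.371). In both genes WT library 2 was the highest, and WT library 1 lay closer to the null libraries.

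Nop16, a nucleolar factor of large subunit assembly, was 34.1, 38.7 and 37.7 CPM in null, against 43.1 and 47.1 CPM in WT (log2 fold change -0.29 ± 0.13 SE, edgeR adjusted p = 0.373). Nle1, a large subunit assembly factor that mice need to maintain blood stem cells, was 21.6, 21.9 and 18.5 CPM in null, against 25.4 and 27.3 CPM in WT (log2 fold change -0.35 ± 0.16 SE, edgeR adjusted p = 0.383). Wdr74, which acts with the RNA exosome in large subunit maturation, had the largest fold change and the fewest counts: 24, 16 and 15 in null, against 29 and 31 in WT. The edgeR adjusted p was 0.485, at a log2 fold change of -0.74 ± 0.40 (SE).

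Bop1, Pes1 and Wdr12 form 1 complex that acts in the maturation of large subunit rRNA, and their values differed in arrangement. Bop1 was 63.2, 62.8 and 60.9 CPM in null, against 68.3 and 77.6 CPM in WT, with no overlap (log2 fold change -0.23 ± 0.11 SE, edgeR adjusted p = 0.421). Pes1 was 130, 143 and 138 CPM in null, against 149 and 142 CPM in WT. Wdr12 was 101, 117 and 103 CPM in null, against 124 and 102 CPM in WT. Both overlapped, with log2 fold changes of -0.09 ± 0.10 and -0.08 ± 0.12 (SE). Rrs1, which brings the ribonucleoprotein of the smallest rRNA into the large subunit, had log2 fold change -0.01 ± 0.12 and Rrp1b -0.07 ± 0.13 (SE). Rrp1b lies 4.98 Mb from Gabbr1 on chromosome 17.

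In the wider list of 62 tested large subunit genes, 1 fell and 0 rose in edgeR. This was Ccdc86, a nucleolar protein gene outside the 37 (chromosome 19, 10941481 to 10949266), with 49, 46.4 and 49.2 CPM in null, against 64 and 72.9 CPM in WT. Its fold change was 0.71 (95% interval 0.59 to 0.84, edgeR adjusted p = 0.0399). DESeq2 called it too (adjusted p = 0.0384) and limma-voom did not (0.0606), and without any 1 of the 5 libraries it was lost in edgeR, with adjusted p between 0.066 and 0.352. Its exons share bases with Ptgdr2 on the opposite strand. Over the list the median log2 fold change was -0.07.

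**Figure D3:**
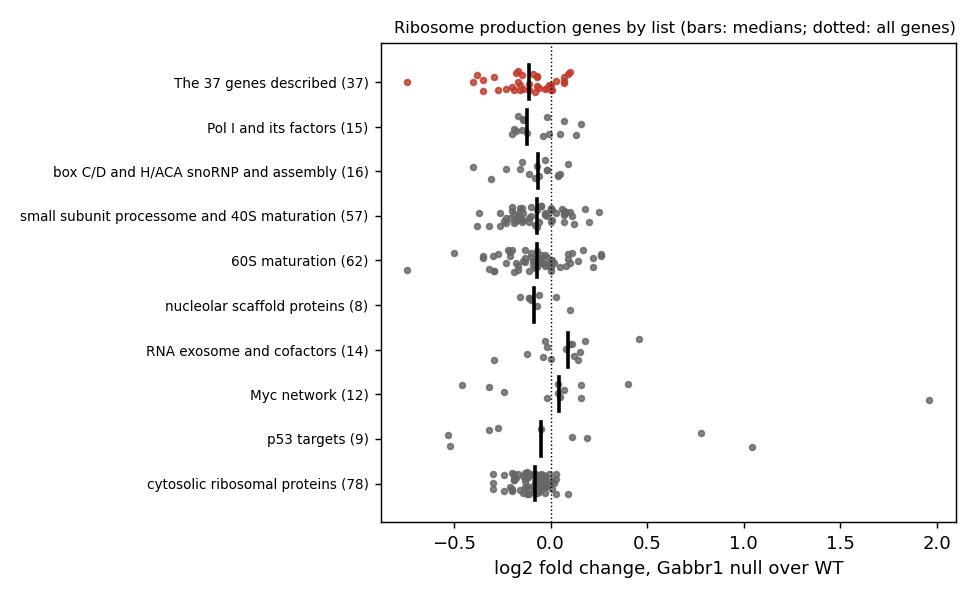
Log2 fold change of Gabbr1 null over WT (x axis) for the 37 genes (red) and for the tested genes of 9 lists of ribosome production and its regulation (grey), with list medians as bars and the median of all genes tested as a dotted line. List medians lie between -0.12 and 0.09, and 2 genes passed the test in edgeR, Ccdc86 among the large subunit genes and Trp53inp1 among the p53 targets.

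Genes next to the pathway gave the same picture of few calls. Of 14 tested genes of the RNA exosome, which trims rRNA precursors, 0 passed in edgeR, and the median log2 fold change was 0.09. Exosc9 had 61.8, 58.7 and 61.8 CPM in null, against 52.6 and 35.6 CPM in WT (edgeR adjusted p = 0.195, log2 fold change 0.46 ± 0.15 SE), and shares exonic bases with Ccna2 on the opposite strand. It passed with no filter and without WT library 1 (adjusted p = 0.0401 and 0.0465). Exosc2 was 45.6, 45.7 and 48.2 CPM in null, against 58.3 and 55.1 CPM in WT (edgeR adjusted p = 0.296). Of 78 cytosolic ribosomal protein genes, 0 passed in edgeR and 0 had an unadjusted p under 0.05 in either direction, and 71 had a negative log2 fold change with a median of -0.08. The lowest p of these belonged to Rpl27 and Rps13, both with a log2 fold change of -0.30 (edgeR adjusted p = 0.594 and 0.619).

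Disturbed ribosome assembly is known to stabilise p53, and of 9 tested p53 targets 1 rose in null. Trp53inp1 was 93.8, 76.7 and 61 CPM in null, against 41.2 and 33.5 CPM in WT (edgeR adjusted p = 0.00724, log2 fold change 1.04 ± 0.18 SE). It did not pass once WT library 1 or WT library 2 was left out (adjusted p = 0.0686 and 0.259). Cdkn1a, the cell cycle inhibitor, was 14.8, 13.7 and 14.3 CPM in null, against 8.49 and 8.12 CPM in WT, and did not pass (edgeR adjusted p = 0.0708, log2 fold change 0.78 ± 0.20 SE). Mdm2, the p53 ubiquitin ligase, was 113, 103 and 103 CPM in null and 112 and 85.7 CPM in WT. Of the 9 targets 5 had negative log2 fold changes, and the list median was -0.05. Every null library lay above both WT libraries in 3 of them (Trp53inp1, Cdkn1a and Ccng1) and below both in 3, Phlda3, Bbc3 and Aen, whose log2 fold changes of -0.53, -0.52 and -0.32 were short of the threshold (edgeR adjusted p = 0.574, 0.656 and 0.434). B lineage markers stood higher in the same null libraries, and their part in the Trp53inp1 value was not tested.

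The members also had a spread between the WT libraries, which was not tested against the difference by genotype. WT library 1 was above WT library 2 in 24 of 37 members (64.9%), as in 50.2% of all genes tested. In 12 of 37 members (32.4%) all null libraries lay within the range of the WT libraries, as in 11.2% of all genes tested, and in all 12 WT library 1 was the higher one. WT library 1 was the highest of the 5 libraries for 20 members and the lowest for 0. WT library 2 was the highest for 11 and the lowest for 15. These counts were not taken over all genes tested, so they are not shown to be particular to the members. The summed level of the 37 genes was 4823, 4892 and 4876 CPM in null, against 5516 and 4599 CPM in WT libraries 1 and 2. As a share of counts it was 0.464%, 0.492% and 0.485% in null, against 0.562% (95% Wilson interval 0.556 to 0.567) and 0.463% (0.458 to 0.468) in WT, where the intervals cover counting error only.

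**Figure D4:**
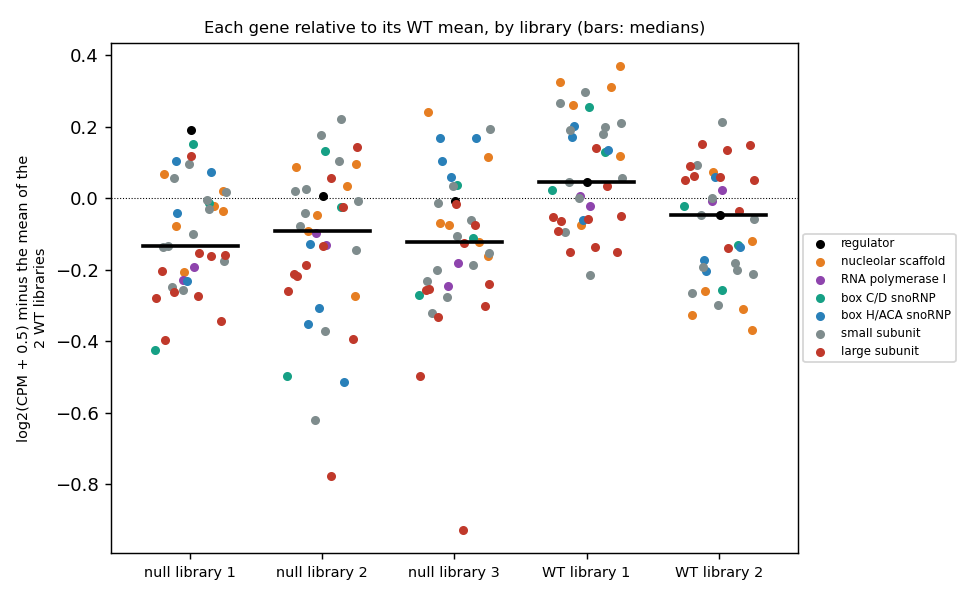
Deviation of each of the 37 genes from its mean over the 2 WT libraries, as log2(CPM + 0.5) (y axis), in each library (x axis); colours give the role and bars the medians. The medians are -0.13, -0.10 and -0.12 in null libraries 1 to 3, 0.05 in WT library 1 and -0.05 in WT library 2, and most scaffold genes lie above zero and most large subunit genes below it in WT library 1, with the reverse in WT library 2.

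Among the members, the direction of this spread differed by role, a difference that was not tested. The log2 ratio of WT library 1 over WT library 2 had a median of 0.57 in the scaffold genes, 0.36 in the small subunit genes, 0.31 and 0.26 in the box H/ACA and box C/D genes, -0.02 in the RNA polymerase I genes and -0.12 in the large subunit genes, where 2 of 10 were higher in WT library 1. The order was not seen in the wider large and small subunit lists without the members. There 34 of 51 large subunit genes (66.7%, median 0.07) and 26 of 46 small subunit genes (56.5%, median 0.03) were higher in WT library 1. The scaffold list held only 2 other genes, with a median of -0.11, which are too few to show an order. The highest ratios were those of Ncl (0.74), Npm1 (0.65), Gnl3 (0.62) and Wdr43 (0.60). The lowest were those of Bysl (-0.43), Nop2 (-0.30) and Ppan (-0.30). Immediate early genes had the opposite order, at 1120 and 2000 CPM, and B lineage markers the same order, with 196 and 82.3 CPM; whether either bears on the members was not tested. Over all genes tested the median ratio was 0.00. All 78 ribosomal protein genes were higher in WT library 1, with a median log2 ratio of 0.24.

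The lean of the members depended on the WT library used. Without WT library 1, 18 members were positive and 19 negative, the median log2 fold change being -0.05, and an unadjusted p under 0.05 was reached by 5 members on the higher and 6 on the lower side, where 9.96% and 8.11% of all genes were. Without WT library 2, 4 were positive and 33 negative, with a median of -0.19, and 0 were higher and 6 lower, where 5.74% and 2.41% of all genes were. In each case 0 members passed in edgeR. Without null library 1, which stood apart in neutrophil markers, the median was -0.11, with 29 members negative.

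Among the members, 8 carry annotated snoRNA genes within their bodies on the same strand, 23 snoRNA genes in all: Ncl, Gnl3, Nop56, Nop58, Dkc1, Wdr43, Tsr1 and Ppan. That is 21.6% of the members, against 1.89% of 13444 tested genes. The median log2 ratio of WT library 1 over WT library 2 was 0.46 in these 8 and 0.04 in the other 29, and 7 of 8 and 16 of 29 were higher in WT library 1; the ratios of the 29 went both ways, Npm1 at 0.65 and Bysl at -0.43 among them, and the difference was not tested. Between genotypes the medians were -0.04 in the 8 and -0.14 in the 29. The count table held 0 of these snoRNA genes, so they could not be analysed. Exons of Ncl, Gnl3, Nop56, Nop58 and Ppan overlap snoRNA genes on the same strand. The part of snoRNA reads in the counts of these members was not tested.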

How the data were processed

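RNA was measured in 5 libraries, per the labels' protocols from 3.6 to 5 ng of RNA with a low-input kit that includes probe-based depletion, read as 2 × 50 bp. The submitters' processing notes name STAR and featureCounts with the mm10 build, per the labels without version, annotation release or strand setting. The values the authors deposited are raw, unscaled counts for each gene, and 99.5% of identifiers matched GENCODE M21, which gave symbols, positions and merged exon lengths. Exons of 17 members overlap a gene on the opposite strand, so their reads cannot be told apart without strand.

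Genes were kept with filterByExpr (13467), normalised by TMM and compared by edgeR 4.0.16 (R 4.3.3) in its quasi-likelihood F test, genotype as the only term; standard errors and 95% intervals were derived from the F statistic. The threshold was a Benjamini-Hochberg adjusted p under 0.05 over all genes. Library deviations use log2(CPM + 0.5). Libraries of a group differed beyond sampling noise (chi-square per degree of freedom 7.61 to 12). The code was tested on simulated data. Alternatives were RLE and upper quartile factors, no filter, a stricter filter (each library at a CPM of 1 or more), DESeq2 1.42.0, limma-voom (limma 3.58.1), a robust fit and each library left out. The members, lists and tests were chosen with earlier results of these data known. All 37 members, the called or 2 lowest-p genes of each list and check genes were named by rule; Npm1, Ncl, Snu13, Znrd1, Cdkn1a, Phlda3, Bbc3, Aen and others are shown in full after their values were seen. 1 listed gene matched no symbol.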

Additional observations from a re-analysis of the deposited data

How the results depend on the processing

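The count of members called, 0 higher and 0 lower, was the same under all 12 alternatives, each library left out included. The median log2 fold change of the members was between -0.12 and -0.09 under the scalings, filters and tools, and between -0.19 and -0.05 with a library left out. Myc, Fbl, Rrp9, Nop2, Nop16, Ppan and Nle1 stayed short of the threshold in all 12. The lowest adjusted p was 0.0536, for Fbl in edgeR with no filter. All of them but Myc had a negative log2 fold change throughout. Myc ran between 0.00 and 0.10, with 0.00 ± 0.14 (SE) without null library 1. Over all genes, 289 were higher and 45 lower; no filter gave 602 and 155, and the stricter filter gave 173 higher, and the cause was not tested. With a library left out, 32 to 316 were higher and 0 to 51 lower: 101 higher without WT library 1, 32 higher and 0 lower without WT library 2, and 15 lower without null library 3. RLE and upper quartile factors moved the median of all genes to -0.01 and -0.02. Levels per kb with the longest principal transcript in place of merged exons, chosen after the data were seen, were 293 for Npm1, 231 for Myc and 1.99 for Wdr74 in null, against 179, 116 and 1.28; Npm1 and Myc stayed the highest and Wdr74 the lowest. With 1 WT library left, it is assumed to vary like the null libraries. No paired analysis was possible because replicate numbers follow the sample order and pair nothing.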
